A study of Mus musculus and Mus musculus
Oryx dammah with 30 samples.

Results

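RNA-seq libraries of the DNA replication experiment, group DR against group D, were compared across 14570 genes of 53023 listed, in 6 of the 30 samples of the series. Every gene other than the ERCC spike-ins was taken that reached 1 FPKM (fragments scaled to the length of the gene and the size of the library) in at least 3 of the 6 libraries. Each library was made from a pool of 4 mouse embryos at the four-cell stage, and each group had 3 pools. Both groups were NT embryos: C2C12 cells, an established myoblast line from C3H mice, had been fused with a blastomere of four-cell embryos that carry C57BL/6 and DBA/2 genomes, and no α-amanitin, an inhibitor of RNA polymerase II, was given. Embryos were moved to 0.1 µg/ml demecolcine at 40 h post insemination (hpi), or by the methods up to a few hours later. They were kept in it for 24 h of culture after NT. The experiment asked whether DNA replication bears on transcription after NT, with transfers begun either at 40 hpi, before replication ends, or at 46 hpi, after it. The sample names give the letters D and DR and do not say which group was transferred at which time, so both are kept as letters. The columns of the table are named DR1, DR2 and DR3 and D1, D4 and D5, and single pools are called by these names. The sample names of D run from 1 to 3, so D4 and D5 are known to belong to D but not which of its samples they are. The pools are described as independent biological replicates without saying what was renewed between them, so a p-value measures the spread between these pools, part of which may be technical. Each embryo held the nuclei of its own blastomeres, the fused one included, besides the transferred ones, and the FPKM do not separate them.

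Demecolcine stops microtubules from forming a spindle, so treated embryos can finish S phase but do not divide. Licensing factors such as the MCM helicase prepare origins for a single firing, replication-dependent histone genes supply the protein for the new DNA, and cyclin B with the Aurora kinases drives entry into mitosis. The four-cell embryo has just left the stage at which a short burst of transcription turns on retroelement-linked gene families such as Zscan4, Usp17l and Tcstv, and it is starting to express regulators of the trophectoderm and of pluripotency.

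Depth differed between the groups without overlap. As far as FPKM allow it to be recovered, the DR pools held 2603948 to 4252277 reads on genes and the D pools 6059973 to 19181392, D4 being the deepest (two-sided exact permutation over the 10 splits of 3 against 3 pools, p = 0.1, which is the smallest it can give). Genes above 0 numbered 22800 to 25833 in DR and 26456 to 28598 in D (exact permutation p = 0.1), whereas genes at 1 FPKM or more numbered 13584 to 15070 and 14226 to 14820 (exact permutation p = 0.6). Mitochondrial genes made up 16.8% to 19.3% of the FPKM in DR and 15.9% to 19.5% in D (exact permutation p = 0.8). Spike-ins made up 0.112% to 1.34% in DR and 0.0458% to 1.84% in D, so the scale factor from the 19 spike-ins found in every pool ran from 0.0937 in D1 to 5.60 in D5, both pools of the same group. The most alike pairs of pools across the genes were DR2 with D4 and DR1 with DR3, a pair across the groups and one within DR (Pearson's r of 0.95 and 0.948 of log2(FPKM + 1) over 14570 genes, which are not independent), and the least alike lay within D (D4 and D5, r = 0.869). Of 18 markers of cumulus and granulosa cells 14 were under 1 FPKM in every pool, and the receptors Fshr and Lhcgr were listed at 0 in all. Their summed level, however, was 18.9 to 49.9 FPKM in DR and 12.4 to 14.0 in D without overlap, carried by Amhr2 (16.2 to 19.2 FPKM in DR and 9.60 to 10.6 in D) and, in DR3, by Hsd3b1 at 28.4 FPKM, and its part in the results was not tested. Of 10 sperm markers 8 were under 1 FPKM throughout, and the sums overlapped (4.70 to 8.26 FPKM in DR and 2.86 to 9.74 in D). Fewer cells of a type and less RNA per cell cannot be told apart in such pools.

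No gene passed the test between DR and D. By limma on log2(FPKM + 1), 0 of 14570 genes had an adjusted p under 0.05, whether FPKM were taken as deposited (percent called 0.0, smallest adjusted p = 0.67) or scaled to the spike-ins (percent called 0.0, smallest adjusted p = 0.713), and so no DEG was called. At an unadjusted p under 0.05 the FPKM as deposited gave 897 genes (6.16%), 585 higher in DR (4.02%) and 312 lower (2.14%). This balance rested on single pools, since 616 genes were higher and 642 lower without DR2 (4.23% and 4.41%), and 353 and 372 without D5 (2.42% and 2.55%). Over all genes the shares were 1.79% higher and 1.25% lower without DR1, 2.72% and 1.35% without DR3, 3.25% and 1.94% without D1, and 5.61% and 3.52% without D4, against which the counts of the lists without a pool are to be read. The median gene differed by 0.02 on the log2 scale. The precision as deposited was enough to bound most genes: for 12947 of them (88.9%) the 95% confidence interval of the difference lay wholly within 4-fold on this scale. Spike-in scaling widened the median half-width of that interval from 0.77 to 3.91 log2 units, left 3 genes bounded within 4-fold, and put 14456 genes lower in DR with a median log2 difference of -1.41; 88 genes (0.604%), all lower in DR, had an unadjusted p under 0.05. Differences given from here on are DR minus D on log2(FPKM + 1) as deposited unless spike-ins are named, and this scale understates changes of low genes. The gene lists were chosen with earlier results of these data known. Their shares and spread beside those of all genes are therefore descriptions and no independent comparison.

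**Figure D1:**
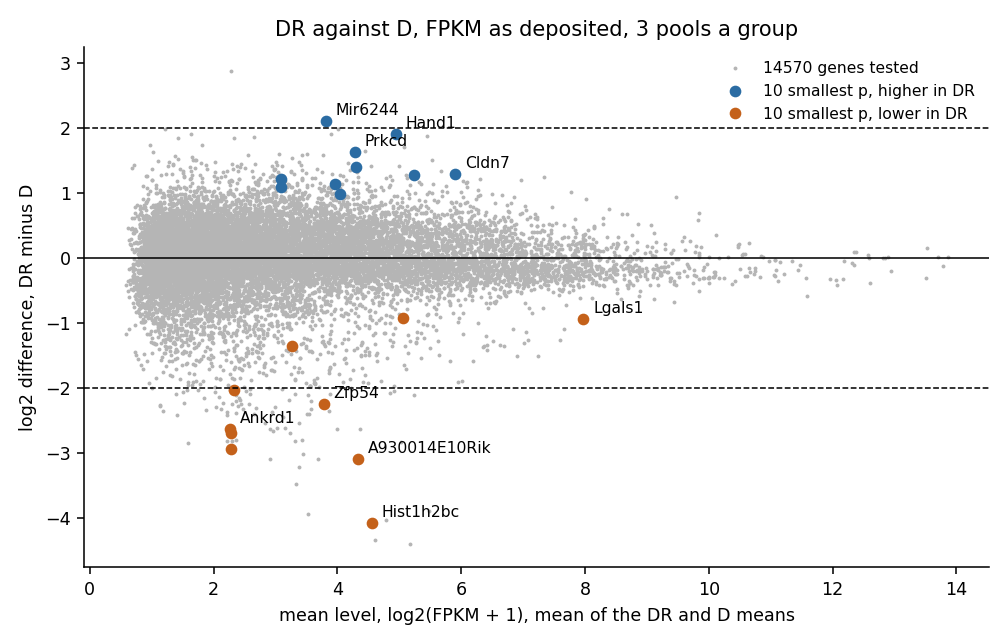
Log2 difference in FPKM as deposited (DR minus D, vertical axis) against the mean log2(FPKM + 1) of the 2 groups for 14570 genes, with the 10 genes of smallest p in each direction coloured and 4-fold marked by dashed lines. The coloured genes lie from -4.08 (Hist1h2bc) to 2.10 (Mir6244), and none had an adjusted p under 0.05.

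The genes nearest to a difference, among those with a mean of at least 5 FPKM, were 10 higher and 10 lower in DR. The adjusted p was 0.769 for 3 of them and 0.788 for the rest by limma. None of the 20 changed sign under any alternative of the deposited FPKM, and 10 did under those of the spike-ins. They were picked for small p in these same data, and groups that do not overlap keep their sign when a pool is left out. The kept sign as deposited is therefore no support for them. Mir6244, a microRNA gene on chromosome 9 (mm10, chr9:52115623-52115739), stood at 24.5, 23.1 and 39.4 FPKM in DR1, DR2 and DR3 and at 4.23, 9.14 and 4.90 in D1, D4 and D5. All 3 DR pools were above all D pools, with a log2 difference of 2.10 ± 0.35 (SE), although in D1 its value equals the 4.23 FPKM that 3 reads give. Its mature sequence in RefSeq (GRCm38.p6) is shown because it leads the genes higher in DR, with the seed (bases 2 to 8) in capitals.
miR-6244: gGGGGCGUggaauuaucgggu
These libraries hold poly(A) RNA, so the value describes reads over the hairpin gene and not the mature microRNA.

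Among the genes higher in DR, Hand1 and Cldn7 belong to the outer, trophoblast-forming lineage. Of the 7 tested markers of blastocyst hatching and lineage, the list that holds Hand1, 1 (14.3%) was higher at an unadjusted p under 0.05 and none lower, beside 4.02% and 2.14% of all genes. Without DR2, 2 were higher and 1 lower, and without DR3 2 were higher. Of its other members, Id2, an inhibitor of helix-loop-helix factors, had 1.88, 11.6 and 2.99 FPKM in DR and 8.29, 9.62 and 20.4 in D (-1.29 ± 0.60), and Ascl2, a trophoblast factor, differed by -0.11 ± 0.57. Hand1, a helix-loop-helix factor of trophoblast that is also known from the heart, had 100.8, 44.4 and 44.6 FPKM in DR and 20.4, 10.1 and 15.7 in D. The groups did not overlap and the log2 difference was 1.91 ± 0.41 (SE; limma unadjusted p = 0.00197). Cldn7, a tight junction claudin, had 102.9, 83.3 and 92.9 FPKM in DR and 45.8, 45.5 and 24.4 in D, a difference of 1.3. Rdh10, which oxidizes retinol on the way to retinoic acid, had 22.6, 20.7 and 22.8 FPKM in DR and 10.7, 7.72 and 10.3 in D. Both groups were tight and apart, and the difference was 1.14. Prkcd (protein kinase C delta), Pecam1 (an adhesion receptor), Mcrs1, Smarcd2 (a subunit of SWI/SNF remodelling complexes), Gm13127 and Gm14131 differed by 0.99 to 1.63, again with no overlap between groups. Gm13127 and Gm14131 are processed pseudogenes, so their reads may belong to parent genes. Scaled to the spike-ins, which moved the median gene to -1.41, their differences were 0.40 (Mir6244), 0.23 (Hand1), -0.09 (Prkcd), -0.39 (Cldn7) and -0.50 (Rdh10), all above that median, with SEs of 2.18 to 2.37, so their signs on this scale carry no weight.

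Among the genes lower in DR, A930014E10Rik, a long noncoding RNA gene (chr6:142971752-142973818), had 3.51, 8.90 and 6.49 FPKM in DR and 128.6, 46.5 and 32.6 in D. Every DR pool was below every D pool, and the log2 difference was -3.09 ± 0.54. Ankrd1, a nuclear cofactor of striated muscle, had 1.14, 2.40 and 0 FPKM in DR and 13.6, 7.47 and 13.0 in D, a difference of -2.63 ± 0.49. Its 0 in DR3 allows up to 0.653 FPKM, the value of 3 reads at that depth; such limits cover counting error only. Lgals1 (galectin 1, abundant in myoblasts) had 187.9, 212.5 and 147.1 FPKM in DR and 429, 325 and 299 in D. The DR pools were again all lower, by 0.94 on the log2 scale (difference -0.94 ± 0.23). Rbmx2, a spliceosome component, differed by -0.92 and was among the steadiest genes of its level within each group, from 20.3 to 25.0 FPKM in DR and from 41.6 to 49.5 in D. Hist1h2bc, an H2B gene, had 1.44, 22.4 and 2.32 FPKM in DR and 110.2, 30.7 and 257.8 in D. Its log2 difference of -4.08 ± 1.02 was the largest in size of the 20. Zfp54, Bcdin3d, AC141438.3 and the small RNA genes Gm26165 and Gm24299 made up the rest, from -2.94 to -1.35. Gm24299 had 0, 4.41 and 0 FPKM in DR and 17.4, 5.27 and 20.2 in D, and 3 reads give 12.1, 9.94 and 16.2 FPKM in the DR pools, so that its separation from D4 was not detectable at this depth. The same holds for Gm26165, at 0, 0.852 and 2.78 FPKM in DR against 22.7, 6.99 and 8.83 in D, in DR3, where 3 reads give 8.35 FPKM. Ankrd1, Bcdin3d and Hist1h2bc were also without overlap after spike-in scaling, where 142 genes (0.975%) were lower in DR without overlap and 2 (0.0137%) higher. Gm24299 was without overlap there too, but scaling the same reads does not make its separation from D4 detectable.

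A few genes with as small a p had a lower mean. Sfmbt2, an imprinted Polycomb-type gene expressed from the paternal allele, had 2.17, 2.22 and 3.58 FPKM in DR and 0.235, 0 and 0.0157 in D. The log2 difference was 1.74 ± 0.27 (limma adjusted p = 0.769). It reached 1 FPKM in the DR pools alone, so the filter itself picked it for being higher there. This holds for 49 of the 585 genes higher in DR at an unadjusted p under 0.05, Snord67 among them, and for 44 of the 312 lower genes with D in place of DR, Snord59a among them. Snord59a, a small nucleolar RNA gene, was listed at 0 in the 3 DR pools and at 5.58, 2.47 and 3.88 FPKM in D. At 3 reads the DR pools could hold 11.6, 9.53 and 15.6 FPKM unseen, so no difference was detectable at their depth, although the adjusted p of 0.67 was the smallest of all genes. Snord67 had 1.29, 2.12 and 1.73 FPKM in DR, each under the 6.36 to 10.4 FPKM that 3 reads give there, and 0 in D, where 3 reads give 4.46 FPKM in D1, 1.41 in D4 and 3.88 in D5.

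For the genes of DNA replication itself, differences of 4-fold or more lay outside every interval. All 64 licensing and fork genes were tested, and their median difference was 0.09, beside 0.02 over all genes. None passed the adjusted test, 2 (3.12%) were higher in DR at an unadjusted p under 0.05 and none lower, beside 4.02% and 2.14% of all genes. In 7 of them every DR pool was above every D pool, and in 1 below (8.21% and 3.99% of all genes, 12.2% in either direction). The 95% interval lay within 4-fold for all 64 and within 2-fold for 29, and their FPKM summed to 2204, 1782 and 2113 in DR and 1888, 1790 and 2428 in D. Pcna, the sliding clamp of the fork, had 50.1, 51.8 and 39.0 FPKM in DR and 52.6, 39.9 and 55.3 in D, with the groups interleaved and an interval of -0.62 to 0.49. Gmnn (geminin), which blocks relicensing, was likewise interleaved, at 204 to 281 FPKM in DR and 199 to 263 in D. Rrm2, a subunit of ribonucleotide reductase, varied more within groups than between them, with 215.7, 65.9 and 137.7 FPKM in DR and 134.3, 86.5 and 119.4 in D. The 2 genes higher in DR were Mcm10, an initiation factor, at 13.6, 9.48 and 8.09 FPKM against 4.50, 4.98 and 3.30 in D (1.10 ± 0.30), and Chaf1a, the large subunit of the chromatin assembly factor CAF-1, at 9.98, 12.4 and 9.23 against 5.71, 7.4 and 3.08 (0.90 ± 0.34). For both, every DR pool lay above every D pool. Pcna was chosen after its values were seen, as were several genes in the plot of cell cycle genes, Orc1, Mcm5 and Mcm6 among them. Without D4 the median was -0.04, with 4 genes higher and 3 lower, and the other pools left out gave 1 or 2 higher and at most 1 lower. Scaled to the spike-ins, the median of the list was -1.47, beside -1.41 over all genes.

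Mitosis genes had a median difference of 0.37 as deposited and of -1.26 by the spike-ins, beside 0.02 and -1.41 over all genes. Of 47 tested genes for cyclins, checkpoints and mitosis, 11 (23.4%) were higher in DR at an unadjusted p under 0.05 and none lower, beside 4.02% and 2.14% of all genes, and 12 were higher without overlap, beside 8.21% of all genes. None passed the adjusted test. The count was 4 without DR1, 4 without D5 and 7 to 11 without any other pool. Aurka, the spindle pole kinase, had 260.8, 144.7 and 177.3 FPKM in DR and 77.8, 119.7 and 58.3 in D, a difference of 1.20 ± 0.34. Aurkb, the kinase of the chromosomal passenger complex, had 54.1, 29.1 and 42.5 FPKM in DR and 20, 17 and 18.9 in D (1.09 ± 0.28). Both were without overlap between the groups, and by the spike-ins they differed by -0.47 ± 2.41 and -0.56 ± 2.29, beside -1.41 for the median gene. Cks2, a small Cdk-binding protein and one of the most abundant of the list, had 1860 to 2500 FPKM in DR and 1869 to 2373 in D, with the groups interleaved. Cdc20, an activator of the anaphase-promoting complex, was spread widely within D, at 181.6, 363.2 and 53.2 FPKM, beside 503.1, 258.9 and 226.6 in DR. Aurkc, the Aurora kinase of germ cells and early embryos, was low in DR2 and D4 (8.24 and 6.22 FPKM) and at 67.6 and 54.3 in DR1 and DR3.

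Of the DNA damage genes 12.8% and of the p53 targets 12.5% were without overlap between the groups, beside 12.2% of all genes. The median difference of the p53 targets was 0.35, beside 0.02 over all genes. Of 39 damage signalling and repair genes 1 (2.56%) was higher in DR at an unadjusted p under 0.05 and none lower, beside 4.02% and 2.14% of all genes, the median was 0.12, and the interval lay within 4-fold for all 39. That gene was Chek2, a checkpoint kinase, at 60.3, 45.4 and 48.1 FPKM in DR and 28.7, 37.1 and 27.9 in D. The groups did not overlap, and the difference was 0.70 ± 0.23. Of 24 p53 targets, Aen and Sesn2 (8.33%, beside the same 4.02%) were higher in DR at that threshold, a count of 1 without DR1, DR2 or D4. Without D4, 2 p53 targets were lower. The count of damage genes was 0 without DR1 or D1, 2 without DR3 or D5, and 3 (7.69%, beside 5.61% of all genes) without D4. Aen, an apoptosis nuclease, had 26.9, 24.6 and 28.2 FPKM in DR and 12.2, 16.5 and 8.86 in D, with no overlap. Cdkn1a (p21), the cyclin-dependent kinase inhibitor, stood at 165.8, 171.5 and 183.0 FPKM in DR inside the range of D, which ran over 197.2, 95.6 and 289.1.

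**Figure D2:**
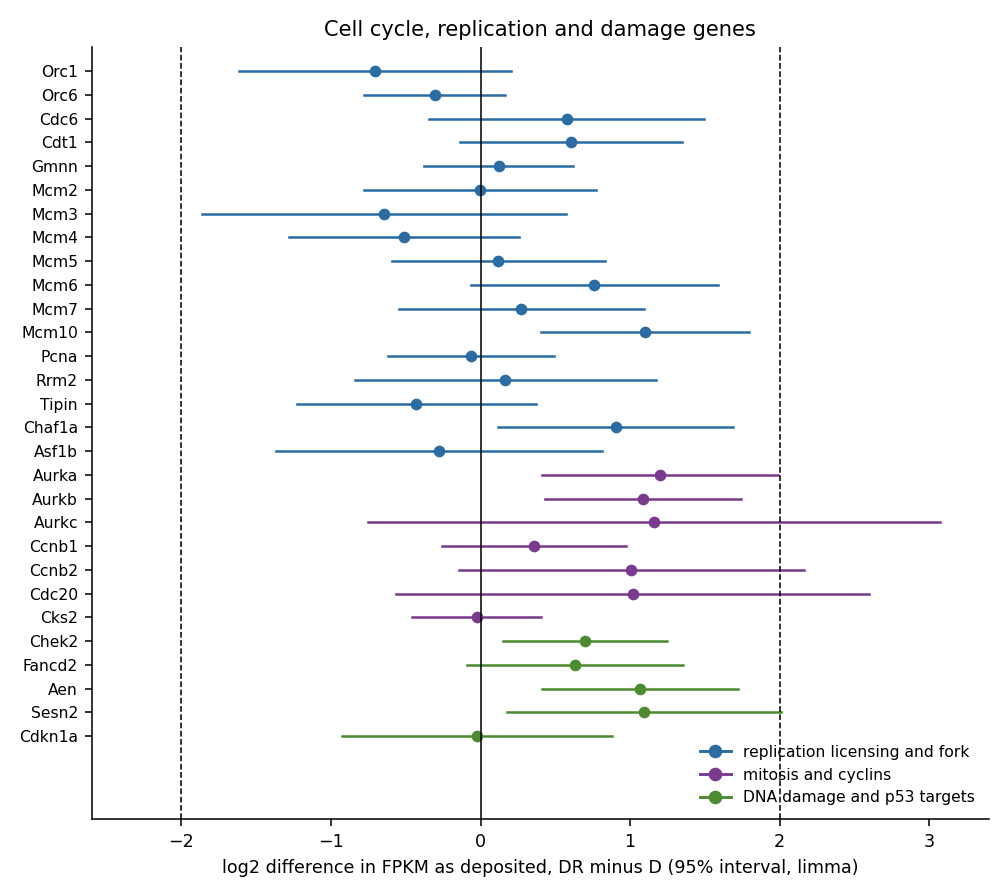
Log2 difference in FPKM as deposited (DR minus D, horizontal axis, point) with its 95% limma interval (line) for 29 genes of replication, mitosis and DNA damage, with 4-fold marked by dashed lines. Intervals of the replication genes other than Mcm10 and Chaf1a span 0, and Aurka and Aurkb lie above it at 1.20 and 1.09.

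Regulators of the first lineages had median differences of 0.47 (trophectoderm) and 0.37 (pluripotency) as deposited and of -1.15 and -1.14 by the spike-ins, beside 0.02 and -1.41 over all genes. Of 20 tested trophectoderm genes 6 (30.0%) were higher at an unadjusted p under 0.05 and none lower, beside 4.02% and 2.14% of all genes. The count was 3 without D1 and 3 without D5, 4 without DR1 and 4 without DR2, and 5 and 7 without DR3 and D4. Cldn4, a claudin of the outer epithelium, had 67.2, 19.5 and 40.4 FPKM in DR and 13.5, 10.1 and 10.7 in D (1.65 ± 0.44). Krt8, a keratin of that epithelium, was low, at 1.91, 4.23 and 3.83 FPKM in DR and 0.777, 0.607 and 0.298 in D (1.44 ± 0.32). Krt8 and Krt7 passed the filter through the DR pools alone and had to differ, which leaves 4 of the 6. The groups were apart for Cldn4, whereas Cldn6 was lowest in a single pool, at 0.0952 FPKM in D5 against 10.4 and 21.6 in D1 and D4 and 10.9, 33.7 and 17.9 in DR. Of 27 pluripotency and early embryo regulators 4 (14.8%) were higher and 1 lower (3.70%), against the same shares of all genes. The higher count was 1 without DR1, D1 or D5, 2 without DR3 and 9 without D4, and the lower count was 0 without any single pool other than D4. Sox21, a factor of four-cell fate bias, had 4.88, 2.91 and 4.45 FPKM in DR and 1.24, 0.302 and 1.36 in D (1.40 ± 0.34), and Pou5f1 had 14.7, 11.5 and 11.1 against 7.25, 8.42 and 5.07 (0.78 ± 0.28). The gene that was lower was Dppa3, a maternal factor that protects methylated DNA, with 3330 to 3976 FPKM in DR and 4539 to 5696 in D (-0.41 ± 0.16).

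Of the 6 markers of reprogramming, which the study picked from its own NT embryos and which are no independent evidence of a direction, 1 (16.7%, beside 4.02% of all genes) was higher in DR at an unadjusted p under 0.05. None was without DR1, DR3 or D5, 2 were without DR2, and without D4 1 was higher and 1 lower. This was Kti12, a partner of the Elongator complex, at 103.6, 53.5 and 77.7 FPKM in DR and 46.5, 50.8 and 29.3 in D (0.86 ± 0.33, limma unadjusted p = 0.033, adjusted p = 0.788). Its pools did not overlap. Aqp3 (a water and glycerol channel) had 42.9, 16.4 and 23.7 FPKM in DR and 19.9, 14.8 and 12 in D, with overlap and an interval of -0.19 to 1.62. Rnd3 and Plk2 were interleaved, with intervals of -0.40 to 1.33 and -1.37 to 0.78. Lzic and Tmem144 overlapped too, and Tmem144 was listed at 0 in D4 and at 2.16 to 4.73 FPKM in the other 5 pools. Zfp281, a zinc finger transcription factor of pluripotent cells, had 14.3, 17.3 and 21.9 FPKM in DR and 13.9, 19.7 and 13.5 in D, with an interval of -0.47 to 0.82.

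Chromatin regulators and zinc finger genes were counted in the same way. Of 33 tested histone modifying enzymes 4 (12.1%, beside 4.02% of all genes) were higher at an unadjusted p under 0.05 and none lower, with 2 without DR1 and 2 without DR2. Kdm4a, a demethylase of histone H3, had 2.43, 1.95 and 2.99 FPKM in DR and 0.628, 0.956 and 0.682 in D, and Rnf2, the ubiquitin ligase of Polycomb complexes, had 44.8, 43.0 and 59.0 in DR and 27.6, 29.8 and 26.0 in D. Neither overlapped, with differences of 0.97 and 0.78, but Kdm4a passed the filter through the DR pools alone and had to differ, so it adds nothing to the count. Of 241 tested Zfp zinc finger genes 15 (6.22%, beside 2.14% of all genes) were lower in DR and 2 higher (0.83%, beside 4.02%). Of the 15, Zfp819 and Zfp9 passed the filter through the D pools alone and had to differ. Without D4 these counts were 14 and 15, shares of 5.81% and 6.22% beside 3.52% lower and 5.61% higher over all genes, without DR2 23 and 4, and without DR1 or D5 9 lower.

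Pools of the same group differed far more in some gene classes than in others. The spread of a gene was taken as its pooled within-group SD of log2(FPKM + 1), which had a median of 0.40 over all genes, 0.42 for genes under 3 FPKM and 0.31 for those over 100 FPKM. It is expressed as a log2 ratio to the median gene of like level, so 0 is typical and 1 is a doubled SD; over all genes 1460 (10%) lie in the most spread 10% of their level. By type, 49.1% of 224 snoRNA genes, 49.0% of 51 snRNA genes, 46.9% of 307 microRNA genes, 37.0% of 54 misc_RNA genes, 35.8% of 218 unprocessed pseudogenes and 28.5% of 485 lincRNA genes lay in that most spread 10%, beside 6.81% of 9599 protein-coding genes. Of the lists with at least 5 tested genes, 5 had a median ratio of 1 or more: genes of the two-cell burst (2.61), replication-dependent histone genes (1.32), Obox and Pramel family genes (1.28), snoRNAs and scaRNAs (1.03) and olfactory receptor genes (1.01). Of these, histone genes had 0.97 and olfactory receptor genes 0.21 without D4, Obox and Pramel genes 0.70 without D1, and olfactory receptor genes 0.79 without D5. The two-cell list kept 1.76 without D1, its lowest value with a single pool left out. The steadiest lists were DNA damage genes (-0.64), proteasome subunits (-0.60) and splicing factors (-0.46). These ratios are descriptions, and members of a family can share reads. Genes were matched on FPKM and not on length, and a short gene holds fewer reads at the same FPKM. In DR1 3 reads give 12.1 FPKM for the snoRNA gene Gm24299 and 0.431 FPKM for Hand1. The part of counting error in the spread of the small RNA classes was not tested.

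**Figure D3:**
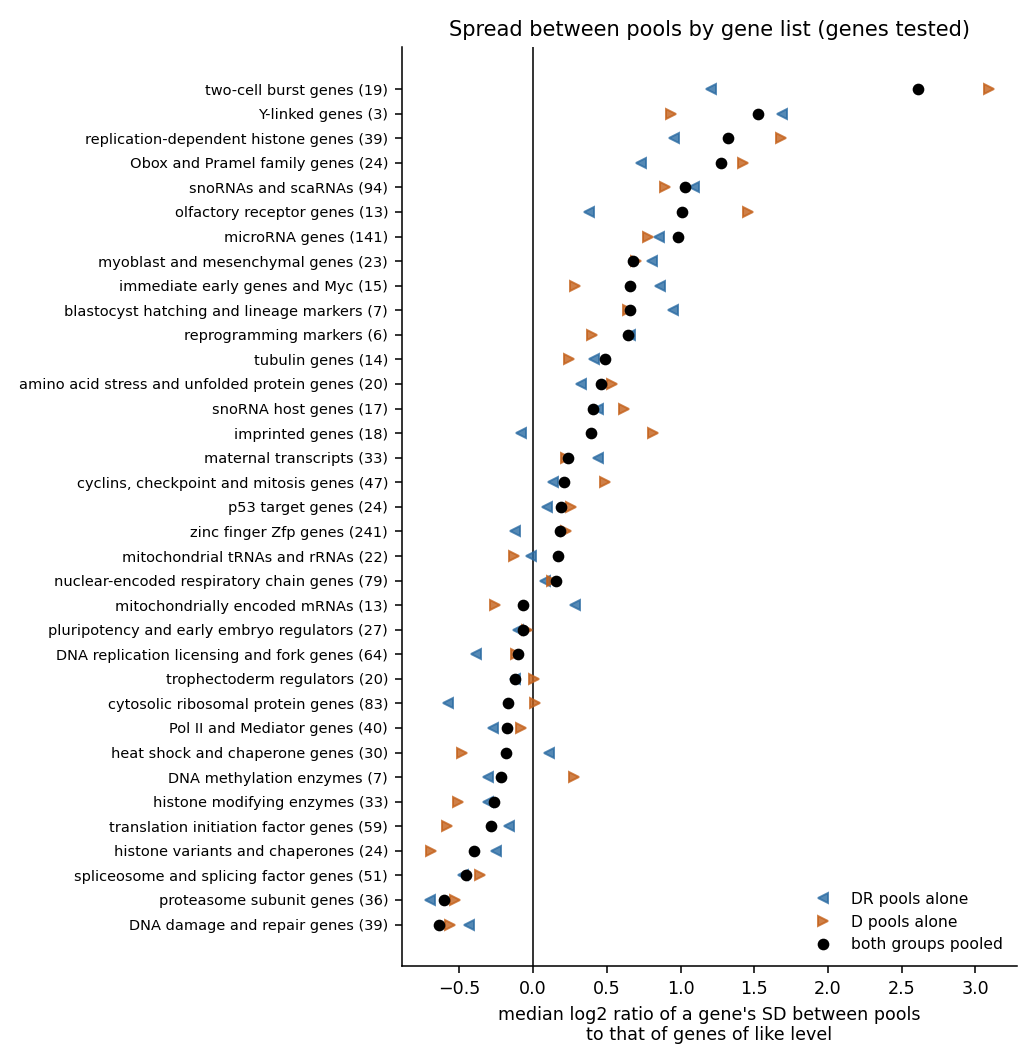
Median over the genes of each list of the log2 ratio of a gene's SD between pools to that of genes of like level (horizontal axis), for both groups pooled (black), DR alone (blue) and D alone (orange), with the number of genes tested in brackets. The two-cell burst list lies farthest out at 2.61, with 1.21 in DR and 3.09 in D, and DNA damage genes lie lowest at -0.64.

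All 19 tested genes of the two-cell burst (of 26 listed) were in the most spread 10%. Their summed FPKM was 424, 1240 and 714 in DR and 9630, 1015 and 156.7 in D, so both the highest pool (D1) and the lowest (D5) were D pools. D1 was the highest pool for 17 of the 19 and D5 the lowest for 14, beside 1351 and 3338 of all 14570 genes. None differed between groups at an unadjusted p under 0.05, and the median difference of -1.0 became 0.33 without D1, where 3 genes (15.8%, beside 3.25% of all genes) were higher in DR, and -2.35 without D5, where 8 (42.1%, beside 2.55%) were lower. Usp17lb, a deubiquitinase gene of the Usp17l family chosen after its values were seen (chr7:104840257-104842603), had 13.3, 22.2 and 85.5 FPKM in DR and 523, 9.93 and 2.39 in D. Zfp352, a zinc finger gene of the two-cell stage (chr4:90218820-90225702), followed another order, at 0.126, 100.3 and 1.43 FPKM in DR and 157.9, 63.1 and 0.693 in D. Tcstv3 resembled it, with 5.14, 109.1 and 4.16 FPKM in DR and 498.2, 117.7 and 2.54 in D. Zfp352 and Tcstv3 were thus high in DR2, D1 and D4 and low in the other pools, whereas Usp17lb and Gm8332, an Eif1a-like gene at 2902 FPKM in D1 and at most 218.2 elsewhere, were high in D1. The 15 genes with the largest relative spread at 10 FPKM or more included 7 neighbours on chromosome 10, of which Gm20765 had 0.678, 120.0 and 0.0387 FPKM in DR and 391.2, 19.2 and 0.612 in D. Gm21304 and Gm21312 had nearly the same values, and reads of near-identical copies may be shared, so the single copies are uncertain. D1 was also the pool with most genes of its own: 94 genes were at least 4-fold above all the other pools there, 11 of them of the two-cell list, against at most 10 in any other pool.

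The promoter of Usp17lb is shown as an example of these genes, from RefSeq (GRCm38.p6, chr7:104842534-104842833, minus strand, 250 bases before the start to 50 after), with the single TATAAA in capitals.
Usp17lb promoter: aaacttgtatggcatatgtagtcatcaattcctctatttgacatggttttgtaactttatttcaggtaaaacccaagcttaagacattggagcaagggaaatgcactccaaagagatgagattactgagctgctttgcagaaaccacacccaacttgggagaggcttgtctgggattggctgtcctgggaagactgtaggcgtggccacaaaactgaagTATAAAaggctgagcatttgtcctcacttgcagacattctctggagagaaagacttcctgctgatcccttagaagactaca
Promoters were found for 9 of the 19 genes. TATAAA, searched on both strands, was in 3 of them (33.3%) and CCAAT in 7 (77.8%), beside 13.6% and 37.4% of all 32851 promoters of this length, and neither motif can overlap the other by more than a base. Their median number of CG dinucleotides was 1, beside 7 over all promoters.

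Replication-dependent histone genes were lower in DR1 and DR3 than in D1 and D5, with DR2 and D4 between, and were among the classes with the widest spread. Of 39 tested (of 70 listed), 8 (20.5%, beside 2.14% of all genes; 1 of them passed the filter through D alone) were lower in DR at an unadjusted p under 0.05, none was higher, and 0 passed the adjusted test. All 39 had a negative difference, with a median of -1.37, or -2.52 by the spike-ins beside -1.41 over all genes. Their summed FPKM was 19.8, 389 and 36.4 in DR and 1075, 112.3 and 1440 in D. DR2 thus lay above D4, and the groups overlapped for 33 of the 39. The other 6 (15.4%, beside 3.99% of all genes) were lower in DR without overlap. Without D4 the count was 29 (74.4%, beside 3.52% of all genes) and without DR2 21 (53.8%, beside 4.41%), with 5 or 6 after leaving out any of the other pools, and in each case 0 after adjustment. Hist1h2ap, an H2A gene (chr13:21833026-21833507), had 0.125, 93.5 and 0.494 FPKM in DR and 263.9, 13.8 and 332.9 in D. In DR1 and DR3 it was under the 1.79 and 2.39 FPKM that 3 reads give, while DR2 was above D4. Hist1h2ao, its neighbour, had nearly the same values (0.197, 96.3 and 1.70 in DR and 266.1, 14.2 and 336.1 in D), and histone genes of a cluster are close copies whose reads may be shared. Hist1h4d, an H4 gene, had 0.252, 39.6 and 0.338 FPKM in DR and 52.3, 7.41 and 49.8 in D, a similar order of pools. The relative spread of the list was 0.96 within DR and 1.68 within D.

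Messenger RNAs of these genes normally end in a stem-loop instead of a poly(A) tail, and the libraries were made from poly(A) RNA. The commonest stem-loop among their annotated 3′ ends is shown, with the 6 paired bases of each arm in capitals and the 4 bases of the loop in lower case.
Histone stem-loop: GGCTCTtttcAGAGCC
This exact form was in the last 150 bases of a transcript for 10 of the 39 tested histone genes and for 3 of 21864 other coding genes (0.0137%), so other forms of the loop are not counted. The median relative spread was 1.80 for the 10 genes with it and 1.13 for the 29 without. The promoter of Hist1h2ao (RefSeq symbol H2ac23, GRCm38.p6, chr13:21810117-21810416, plus strand) is shown because CCAAT boxes are shared by most of the class, with each CCAAT or its reverse complement in capitals.
Hist1h2ao promoter: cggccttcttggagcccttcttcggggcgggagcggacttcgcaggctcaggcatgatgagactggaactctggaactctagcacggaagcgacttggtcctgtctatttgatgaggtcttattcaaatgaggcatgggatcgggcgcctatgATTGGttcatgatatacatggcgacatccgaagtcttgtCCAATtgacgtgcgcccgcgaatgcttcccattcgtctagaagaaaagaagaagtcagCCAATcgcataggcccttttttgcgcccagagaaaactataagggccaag
Of 36 histone promoters found, 29 (80.6%) held CCAAT on either strand and 23 (63.9%) TATAAA, beside 37.4% and 13.6% of all promoters.

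**Figure D4:**
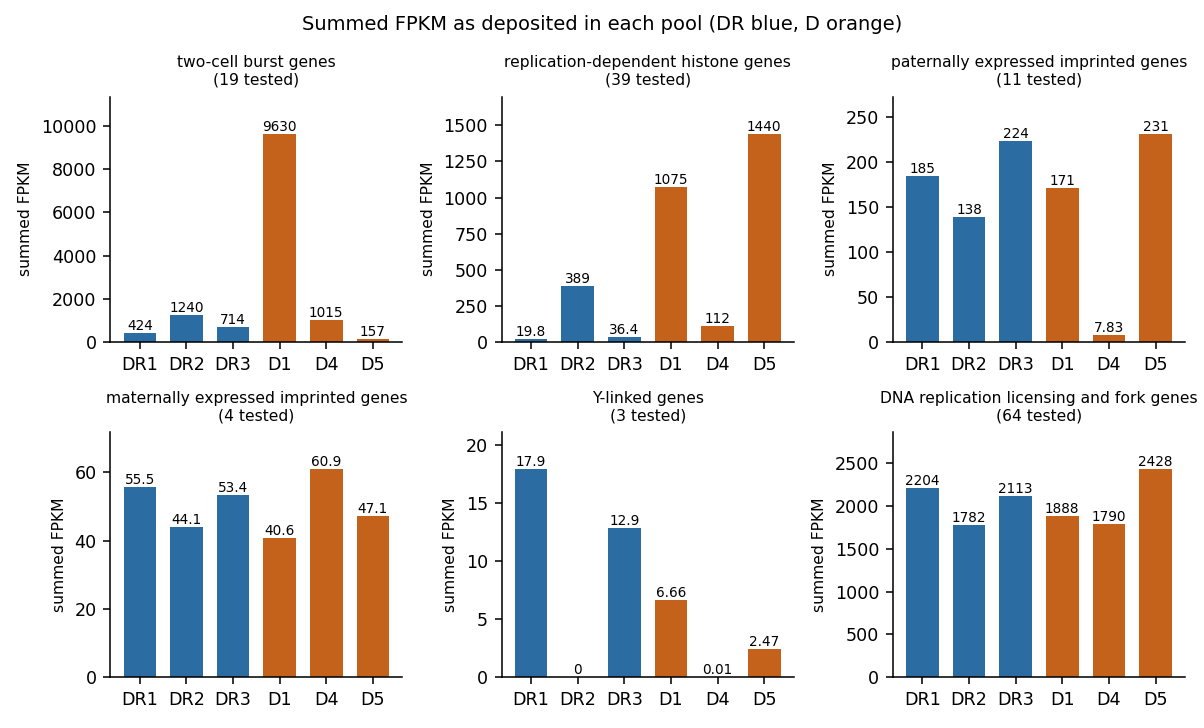
Summed FPKM as deposited (vertical axis, from 0, a scale for each panel) of 6 gene lists in each pool, DR in blue and D in orange. The two-cell burst sum stands at 9630 in D1, the histone sum at 1075 and 1440 in D1 and D5, the paternally expressed imprinted sum at 7.83 in D4, and the replication sum between 1782 and 2428 in all 6 pools.

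Of the microRNA genes of the cluster Mir290 to Mir295, which is active in the early embryo and in embryonic stem cells, 4 were tested. Among these, Mir295 differed between pools of both groups. Mir295 (chr7:3220773-3220841) had 0, 26.7 and 0 FPKM in DR and 54.6, 5.42 and 105.1 in D. The pools at 0, DR1 and DR3, allow up to 12.5 and 16.7 FPKM, so only the excess of D1, DR2 and D5 over them exceeds counting error. Mir294 had 0, 14.5 and 0 FPKM in DR and 7.52, 3.31 and 43.2 in D, and Mir293 0, 5.38 and 0 in DR and 6.54, 4.13 and 18.2 in D. In the DR pools 3 reads give 10.3, 8.40 and 13.7 FPKM for Mir294 and 10.8, 8.82 and 14.4 for Mir293. Mir293 in DR2, and both genes in D1 and D4, were thus under what DR1 and DR3 could hold unseen. Mir295, Mir294 and Mir293 were highest in D5. Mir291b had 0, 2.98 and 2.43 FPKM in DR and 4.18, 3.96 and 4.54 in D, under the 3-read value of every pool but D4, so its order is within counting error. The mature 3′ arms of the 4 tested genes are shown to compare their seeds (bases 2 to 8, in capitals), from RefSeq.
miR-291b-3p: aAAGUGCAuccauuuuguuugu
miR-293-3p: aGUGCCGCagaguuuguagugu
miR-294-3p: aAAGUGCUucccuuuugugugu
miR-295-3p: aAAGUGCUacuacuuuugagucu
miR-294-3p and miR-295-3p share the seed AAGUGCU, whereas miR-291b-3p has AAGUGCA and miR-293-3p has GUGCCGC. Hairpin genes Mir290a, Mir291a and Mir292 stayed under the filter. Of 141 tested microRNA genes named Mir, 7 (4.96%) were higher and 7 lower in DR at an unadjusted p under 0.05, beside 4.02% and 2.14% of all genes (12 and 13 without D4, 7 and 14 without DR2). Of the 7 lower genes 1, Mir7657, passed the filter through the D pools alone and had to differ. Of the 141, 63 (44.7%) were in the most spread 10%. Of 94 snoRNA and scaRNA genes, which guide modification of ribosomal and spliceosomal RNA and mostly sit in introns of host genes, 17 (18.1%) were lower and 4 (4.26%) higher, beside 2.14% and 4.02% of all genes. These counts include Snord59a (lower) and Snord67 (higher), which passed the filter through 1 group alone and whose differences were not detectable at this depth. The lower count was 27 without D4, 25 without DR2 and 10 without D5, where 3.52%, 4.41% and 2.55% of all genes were lower. Their median difference was -0.56, 0 passed the adjusted test, and 22, 18 and 24 of them were listed at 0 in the DR pools against 7, 5 and 4 in the deeper D pools. The part of depth in this was not tested.

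Obox homeobox and Pramel genes, families of oocytes and early embryos, had 14 of 24 tested members (58.3%) in the most spread 10%. Pramef25 had 9.60, 41.4 and 8.0 FPKM in DR and 263.7, 66.2 and 0.972 in D. Obox3-ps2 had 0.535, 3.92 and 0.631 FPKM in DR and 71.6, 2.44 and 0.0886 in D. Both were highest in D1 and lowest in D5, and the median spread of the list was 0.70 without D1, from 1.28 with it. Olfr376, an olfactory receptor gene, was also highest in D1, at 78.3 FPKM, and lowest in DR1, at 2.71.

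Imprinted genes, which are transcribed from the allele of a single parent, set D4 apart. The split by parent was made after the values of Snrpn and Snurf had been seen. Snurf had 79.7, 64.6 and 110.2 FPKM in DR and 76.7, 0.362 and 112.0 in D, and Snrpn 57.0, 52.7 and 72.2 in DR and 57.6, 0.386 and 79.0 in D. The genes overlap (chr7:59995449-60005049 within chr7:59982495-60140219) and share transcripts, so they are not separate measurements. Slc38a4, an amino acid transporter gene chosen after its values were seen, was listed at 0 in D4, which allows up to 0.0396 FPKM, and at 1.74 to 3.57 FPKM in the other pools. D4 was the lowest pool for 10 of the 11 tested genes expressed from the paternal allele, beside 2797 of all 14570 genes. The sum of these 11 was 184.6, 138.5 and 223.5 FPKM in DR and 170.7, 7.83 and 231.2 in D. The 4 tested genes expressed from the maternal allele summed to 40.6, 60.9 and 47.1 FPKM in D and 44.1 to 55.5 in DR, with D4 the highest. The median difference of the paternal genes was 0.73 with D4 and 0.03 without it, and their relative spread 0.62 with it and -0.07 without. Sfmbt2 differed from the rest in being low in D1, D4 and D5 alike.

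Y-linked genes were at or near 0 in a pool of each group. Eif2s3y, a translation initiation factor gene (chrY:1010543-1028847), had 11.7, 0 and 8.58 FPKM in DR and 3.53, 0 and 1.86 in D. The pools at 0 allow at most 0.17 FPKM in DR2 and 0.0376 in D4. Ddx3y, an RNA helicase gene, had 4.47, 0 and 3.10 FPKM in DR and 2.06, 0.01 and 0.414 in D. The 3 tested Y-linked genes were all at 0 in DR2, and their sum ran from 0 to 17.9 FPKM in DR and from 0.01 to 6.66 in D.

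The summed level of genes of the donor myoblasts overlapped between the groups, while Lgals1 alone was lower in DR without overlap. The 23 tested myoblast and mesenchymal genes (of 39 listed) summed to 585, 960 and 483 FPKM in DR and 870, 1003 and 704 in D. DR2 was the highest pool for 11 of them and D4 for 7, beside 2230 and 2212 of all 14570 genes. These were also the pools at or near 0 for Y-linked genes, and a link between the 2 was not tested. Of the myogenic factors, Myod1 was under 3 FPKM in every pool and Myf5 under 1 FPKM, whereas Myog, which did not reach the filter, had 0, 0.0786 and 0 FPKM in DR and 0, 6.91 and 17.4 in D, high in D4 and D5 alone. Acta1 and Tnnc1, genes of muscle fibres, were among the 10 genes at least 4-fold above all other pools in D5. Vim, an intermediate filament gene, had 4.29 to 18.8 FPKM in DR and 4.69 to 24.9 in D. Their median difference was -0.10, 1 of 23 (4.35%, beside 2.14% of all genes) was lower at an unadjusted p under 0.05 (Lgals1) and none higher. The lower count was 3 without D1 and 2 without DR2, 1 gene was higher without D4, and the median was 0.22 without DR3 and 0.13 without D4, so its sign rests on these pools. Acta2, smooth muscle actin, had 37.4, 22.7 and 20.9 FPKM in DR and 4.64, 29 and 53 in D, so its lowest and highest pools were both in D.

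**Figure D5:**
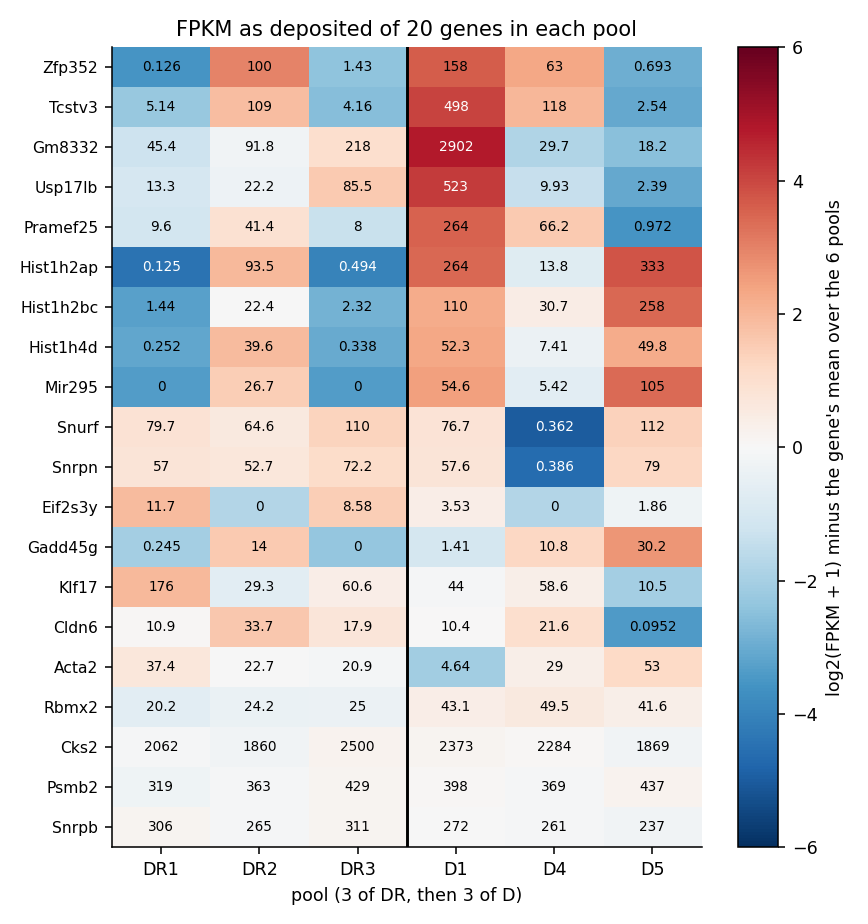
FPKM as deposited (number in each cell) of 20 genes in the 3 DR and the 3 D pools, coloured by log2(FPKM + 1) minus the mean of the gene over the 6 pools. Zfp352 and Tcstv3 are high in DR2, D1 and D4, Hist1h2ap in DR2, D1 and D5, Snurf and Snrpn are low in D4 alone, and Psmb2 and Snrpb at the foot are nearly even.

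Housekeeping classes were level by comparison. Psmb2, a proteasome subunit, had 319.3, 362.9 and 428.7 FPKM in DR and 398.4, 368.9 and 437.2 in D, and Snrpb, a core spliceosome protein, 305.5, 264.7 and 310.9 in DR and 271.9, 260.7 and 236.9 in D. The groups overlapped for both. All 36 proteasome and 51 splicing genes had intervals within 4-fold, and 31 and 38 of them within 2-fold. The 83 ribosomal protein genes summed to 25550 to 29040 FPKM in DR and 27690 to 37600 in D, and D5 was the highest pool for 72 of them and for 60 of 79 nuclear-encoded respiratory chain genes, beside 3814 of all 14570 genes. Their median differences were -0.19 and -0.24, with none of the ribosomal genes and 1 respiratory gene (1.27%) in each direction at an unadjusted p under 0.05, beside 4.02% higher and 2.14% lower over all genes. Without D5 these medians were -0.01 and -0.02. Without D1, 5 respiratory genes (6.33%, beside 1.94% of all genes) were lower, and 2 without DR2. The 13 mitochondrially encoded mRNAs had a median difference of -0.01, and their intervals all lay within 2-fold. The 22 mitochondrial tRNA genes had a median of -0.25, with 2 (9.09%) lower at an unadjusted p under 0.05 and none higher. That count was 0 without DR2 or D1. Of these 22 genes 5 (22.7%) were lower without overlap, and of the ribosomal protein genes 6 (7.23%), beside 3.99% of all genes. None of either class was higher without overlap.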

How the data were processed

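Libraries of poly(A) RNA from the 6 pools (groups D and DR, from the sample names) were used. The authors trimmed reads with Trimmomatic, Trim Galore and cutadapt and mapped them to mm10 with STAR; featureCounts is named in the submitters' processing notes, and versions are not given in the sources used here. The FPKM that the authors deposited are scaled to gene length and library size, without spike-in scaling. They are unscaled for how much RNA an embryo held, so a class that rises in share lowers others. Reads recovered from them are approximate, since 41.4% to 50.5% of the values are whole reads (within 0.01). A further 4 columns of other or unnamed samples were not used. Of 53023 gene identifiers 52918 match GENCODE vM21 without their version.

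Genes with at least 1 FPKM in at least 3 of the 6 pools entered a moderated linear model on log2(FPKM + 1) (limma 3.58.1 under R 4.3.3, prior variance following the mean level, p adjusted by Benjamini and Hochberg over all of them), as deposited and after scaling by the median of ratios over the 19 of 92 spike-ins found in all pools, and the fit was tested on simulated data. DEGs needed an adjusted p under 0.05 and at least 4-fold. Spread was compared within 20 bins of mean level. Single values per pool were compared by exact permutation over the 10 splits. Tables were handled in Python 3.11.15 with pandas 2.3.3 and numpy 2.4.6.

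The 38 gene lists and the members were chosen with earlier results of these data known. Named genes are the 10 of smallest p in each direction at a mean of at least 5 FPKM, the 6 markers and Zfp281, of each list the 3 most abundant, 2 of smallest p and 3 most spread, and the 15 most spread at 10 FPKM or more; others are said to be chosen after their values were seen, as were Mir291b, Mir293, Amhr2, Hsd3b1, Krt7, Zfp819, Zfp9, Myog, Acta1, Tnnc1 and Vim. Alternatives covered the pseudocount (0.1), the filter, library weights, the trend, the scaling, the fold criterion and leaving out each pool. Strain-separated reads and repeats were not analysed here. PCR duplicates cannot be recognised in FPKM, and intervals and floors of 3 reads cover counting error only.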

Additional observations from a re-analysis of the deposited data

How the results depend on the processing

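No DEG was called from FPKM as deposited under any of the alternatives run: the pseudocount of 0.1, no filter, 1 FPKM in all 6 pools, library weights, no trend, no fold criterion, both other scalings, and each pool left out. The smallest adjusted p over these ran from 0.14 to 0.918 and the genes at an unadjusted p under 0.05 from 443 (without DR1) to 2243 (library weights). Scaled to the spike-ins, the count was 0 except in 2 settings. Without single pools it ran from 0 to 4, the 4 without D5 being Gm28645, Gm13962, Gm22723 and Klk1b28-ps (limma adjusted p 0.0382 to 0.0492). With library weights it was 11260, since the weights put nearly all weight on D4 (1060000, beside at most 0.85 elsewhere, smallest adjusted p 1.79e-117 against up to 1 in the other settings), so that fit compares a single pool with the rest. That fit also reversed Cox7b2 (-0.74), Hand1 (-0.93), Krt8 (-0.53), Mir6244 (-1.93), Slc38a4 (0.86), Snord107 (1.90) and Tmem144 (0.81). Of 292 named genes, 96 changed sign under some alternative by the spike-ins (24 without counting pools left out) and 111 as deposited (47). None of the 20 genes nearest to a difference did as deposited and 10 did by the spike-ins. Those 20 were picked for small p as deposited, which nearly fixed that result in advance, so it adds no support. The median spike-in scaled difference of -1.41 was -0.35 without D1 and -2.76 without D5. Sharing out total FPKM moved the median gene from 0.02 to 0.12.

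The lists whose spread ratio was 1 or more numbered 5, and 2 both with 1 FPKM in all 6 pools and within DR alone, 4 within D alone, and 4 to 5 without single pools. Depth limits what 0 means in DR, where 3 reads of Snord59a come to 9.53 to 15.6 FPKM. The difference in genes above 0 (-3580, DR minus D) shrank to -310 at 1 FPKM. No paired analysis was possible because the sample names are numbered 1 to 3 in both groups but the D columns 1, 4 and 5, and columns 4 and 5 match no single sample name.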
